A study of Mus musculus with 2 samples.

Results

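Axon guidance ligands and receptors are described here in single nuclei of the mouse ventral tegmental area (VTA), the midbrain region that holds the dopaminergic neurons of the mesolimbic and mesocortical pathways. The genes were chosen by symbol alone: the netrins Ntn1 to Ntn5 with their receptors Dcc and Unc5a to Unc5d, the slits with Robo1 to Robo4, the semaphorins of classes 3 to 7 with the plexins and neuropilins, and the ephrins with the EphA and EphB receptors. Of 32285 genes in the deposited tables, 69 matched, 35 ligands and 34 receptors. No measured value entered the match, although the rule was set with earlier results of these data known. Over the nuclei kept here, 63 of the 69 had at least 50 unique molecular identifiers (UMIs, each counted as 1 RNA molecule), and 6 had fewer: Efna4, Epha2, Ntn5, Robo4, Sema3b and Sema3g.

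Netrins, slits, semaphorins and ephrins steer growing axons and migrating cells by attraction or repulsion. Netrin 1 attracts through the receptor DCC and repels when an UNC5 receptor takes part, slits repel through the roundabout receptors, class 3 semaphorins are secreted and act through neuropilin and plexin pairs, and ephrins stay on the membrane and signal to Eph kinases on contact. In the adult brain many of these genes continue to be transcribed in neurons and glia, where they are studied for synapse and myelin maintenance. Netrin 1 and DCC in particular are known from the wiring of midbrain dopaminergic axons.

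The study compared 1 library of VTA nuclei from wild type adult mice, titled WT, with 1 library titled CCI, from adult mice with chronic neuropathic pain after CCI, a procedure done on the sciatic nerve of the left hind limb. No strain, allele, transgene, drug or time after the procedure was named for either group, and the number, sex and exact age of the animals, and whether animals were pooled, were not given in the sources used here. The sciatic nerve of the right side was exposed without ligation in the pain model, but the WT label does not say whether its animals had any surgery. With 1 library a group no difference between the groups could be tested, so ratios below are CCI over WT as log2 of CPM (a gene's UMIs scaled to the same total of UMIs in every class and library), with exact 95% intervals that cover counting error only.

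The WT library held 14114 barcodes and 18581333 UMIs and the CCI library 13736 barcodes and 68376220 UMIs; the median per barcode was 975 in WT and 3652 in CCI. The libraries shared 54 barcodes. After filters and removal of called doublets 12128 WT and 12802 CCI nuclei remained. Clusters were named from marker genes, which makes each class name short for nuclei like that type: 5 neuron groups and 4 glial classes had at least 50 nuclei in each library. Dopaminergic neurons, led by Slc6a3 and Th, comprised 822 WT and 368 CCI nuclei. There were 2836 and 2459 GABAergic neurons, 136 and 580 neurons marked by Synpo2 and Lef1, 597 and 1078 marked by Ebf genes and Lmx1a, and 1394 and 1296 other neurons in which glutamatergic markers were highest. The largest GABAergic subcluster held 1855 WT and 784 CCI nuclei. Its GABAergic marker level was 0.259, just above the naming level of 0.25, beside 0.141 for glutamatergic markers. Within the Ebf and Lmx1a group, a subcluster of 192 WT and 305 CCI nuclei had Otx2os1, Nfib and Nfix among its leading genes, and no Ebf gene or Lmx1a. Its marker level for the group was 0.262, near the naming level of 0.25, and GABAergic markers were its highest transmitter markers (0.244). Glia comprised 1266 and 1485 astrocytes, 3823 and 3695 oligodendrocytes, 552 and 387 oligodendrocyte precursors, and 293 and 409 microglia. Many clusters were filled mostly by 1 library: an astrocyte cluster with 1142 WT nuclei had 133 from CCI, and another with 124 WT nuclei had 1352 from CCI. The guidance genes were left out of the genes used for clustering.

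Oligodendrocyte transcripts were lower in CCI in each of the 8 other classes. In oligodendrocytes themselves the markers of other types differed little, at log2 0.17 for neurons, 0.03 for astrocytes and -0.05 for microglia. The summed level of the 8 oligodendrocyte markers in the 8 other classes ranged from 995 to 5140 CPM in WT and from 254 to 1269 CPM in CCI. Within microglia the 6 neuron markers summed to 7898 CPM in WT against 5731 CPM in CCI, and within astrocytes to 2954 and 2620 CPM. The 13 mitochondrially encoded transcripts were lower in CCI in all 9 classes, from log2 -0.21 in precursors to -1.45 in GABAergic neurons and -1.54 in the Synpo2 and Lef1 type. What these transcripts reflect here, and their part in the differences between the libraries below, was not tested. In the glial classes 5 neuron markers (Snap25, Syt1, Rbfox3, Meg3 and Stmn2) gave the level that RNA from neurons could bring: relative to all neurons, between 0.132 and 0.303 in WT astrocytes, up to 0.309 in WT oligodendrocytes, up to 0.465 in WT precursors and up to 0.639 in WT microglia. In the CCI library the upper values were 0.230, 0.264, 0.470 and 0.497. Syn2, the other fixed neuron marker, was set aside after its values were seen, because it was above the neuron level in astrocytes (1.47 in WT and 1.38 in CCI) and precursors. A guidance gene whose level in a glial class relative to neurons lay at or below these upper values is read as background there.

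Most guidance genes kept their place among the classes in both libraries. Of 63 members with at least 50 UMIs, 43 were highest in the same class in WT and in CCI, against 48.4% of all genes at that count. Their classes were dopaminergic neurons for 10 (Dcc, Ntn1, Sema6d, Sema4f, Sema4g, Robo2, Plxna1, Epha5, Epha6 and Epha10), Synpo2 and Lef1 type neurons for 7, oligodendrocytes for 7, astrocytes for 6 and precursors for 5. In 12 of the 63, 1 class was at least 2-fold above every other class in both libraries, which held for 11.4% of all genes. These were 4 genes of oligodendrocytes, 4 of astrocytes and 2 of precursors, against 2.63%, 2.77% and 0.911% of all genes. Dopaminergic neurons and the Ebf and Lmx1a type neurons had 1 each, against 0.963% and 0.0860%. None was a gene of GABAergic neurons (0.0802% of all genes), the Synpo2 and Lef1 type (0.860%), the other glutamatergic-highest neurons (0.0516%) or microglia (3.05%). With shares this low in the neuron groups, 0 of 63 members is not read as a trait of the guidance genes.

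**Figure D1:**
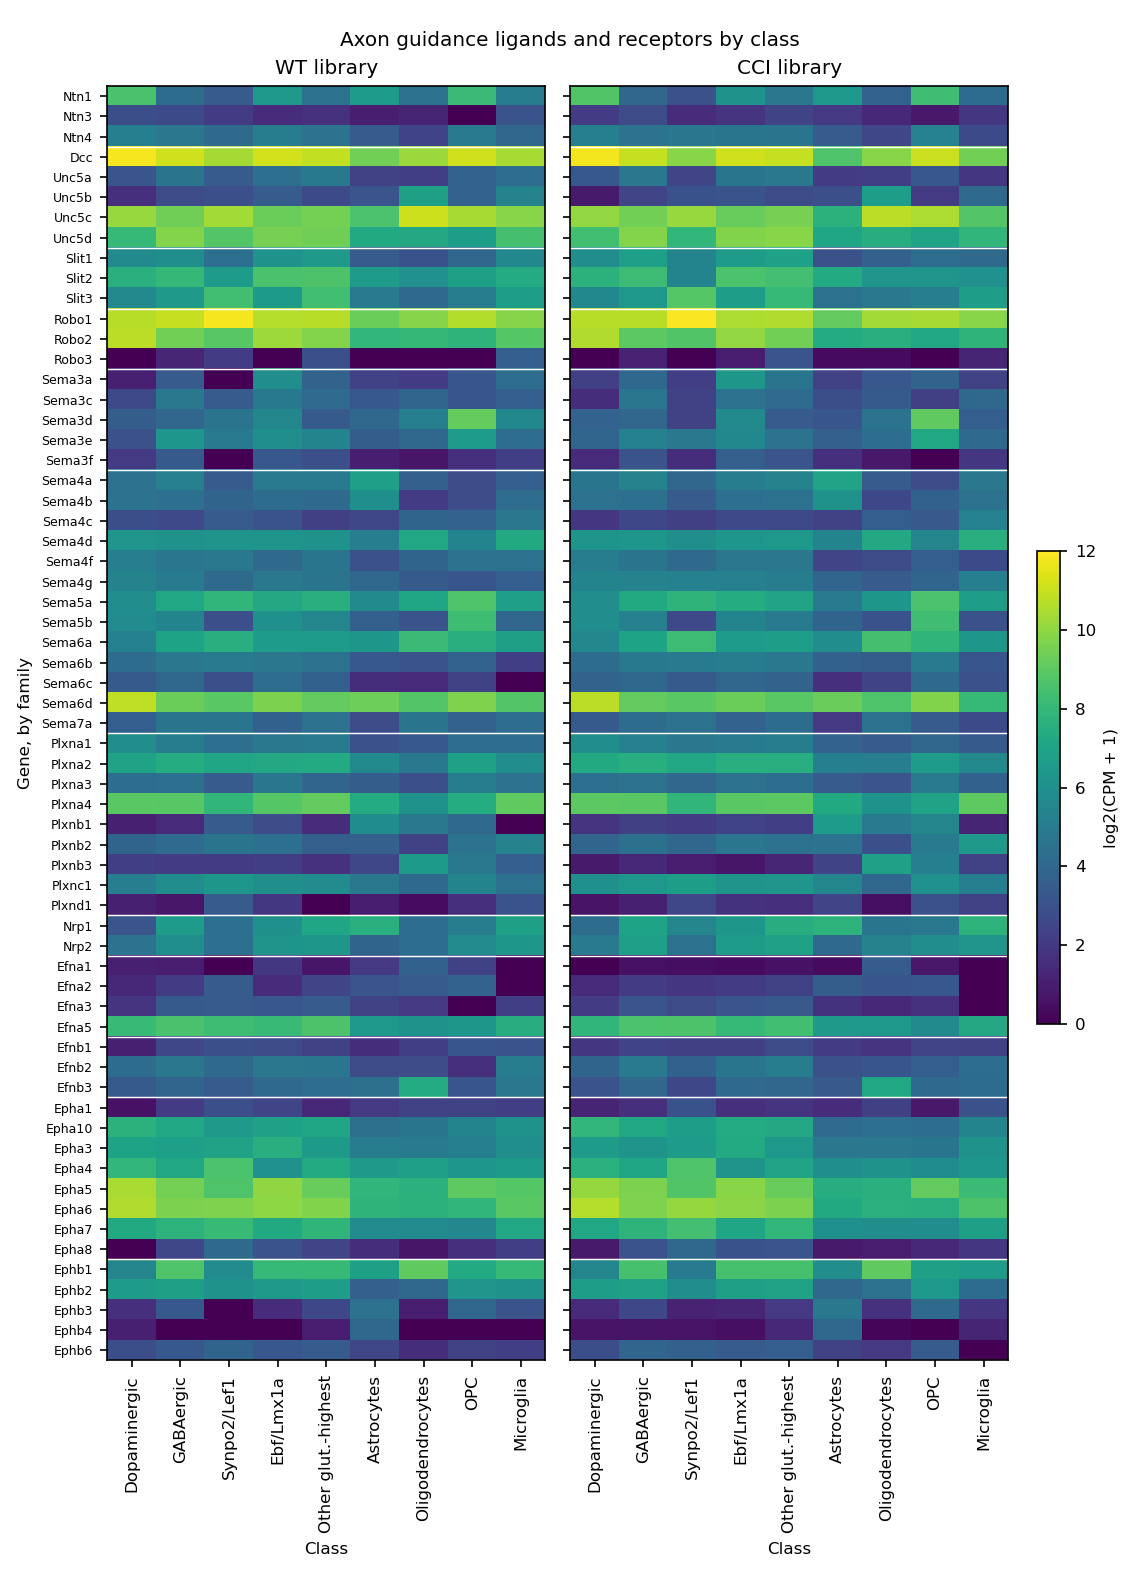
Level of the 63 members with at least 50 UMIs, as log2(CPM + 1), in the 9 classes of the WT library (left) and the CCI library (right), with genes grouped by family between white lines; OPC are oligodendrocyte precursors. Rows compare classes, not genes, since long genes collect more UMIs; Sema3d and Sema5b stand out in precursors and Efnb3, Unc5b and Plxnb3 in oligodendrocytes of both libraries.

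Ntn1, the gene of the secreted ligand netrin 1 (ENSMUSG00000020902, chromosome 11, 68209364 to 68400823, minus strand, mm10 coordinates from the GENCODE vM21 annotation), was a gene of dopaminergic neurons and oligodendrocyte precursors. In dopaminergic neurons it reached a WT level of 372 CPM (95% interval 346 to 401, 713 UMIs) and 428 CPM in CCI (407 to 450, 1538 UMIs). Precursors followed with 293 CPM in WT (247 to 346) and 322 CPM in CCI (292 to 354), so that dopaminergic neurons stood 1.27-fold and 1.33-fold above them. The next levels were those of astrocytes at 97.3 and 82.7 CPM and of Ebf and Lmx1a type neurons at 83.4 and 69.4 CPM, whose intervals overlapped in each library. All other classes stayed between 6.95 and 33.0 CPM. Among the neuron groups the dopaminergic level was 4.46-fold above the next group in WT and 6.18-fold in CCI. Relative to neurons, Ntn1 in oligodendrocytes stood at 0.249 and 0.206 and in microglia at 0.371 and 0.293, within the range of the neuron markers, while in precursors it stood at 3.297 and 5.293.

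The other netrins were low. Ntn4, a netrin of basement membranes, lay between 4.37 and 38.7 CPM in every class of both libraries, with dopaminergic neurons highest in WT (35.5 and 35.4 CPM) and precursors highest in CCI (29.1 and 38.7 CPM). Ntn3 did not exceed 7.34 CPM in any class, a value that rested on 2 UMIs of WT microglia, and its exons overlap those of a gene on each strand, so its reads could belong to a neighbour.

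Dcc, the netrin receptor (ENSMUSG00000060534, on chromosome 18), was detected in every class and was also highest in dopaminergic neurons. Dopaminergic neurons had 3686 CPM in WT (3601 to 3773) and 3517 CPM in CCI (3456 to 3579), 1.58-fold and 1.55-fold above the next neuron group. Ebf and Lmx1a type neurons (2337 and 2267 CPM), GABAergic neurons (2252 and 1960 CPM) and the other glutamatergic-highest neurons (1930 and 1953 CPM) formed the middle of the order. The Synpo2 and Lef1 type was lowest among neurons with 1318 and 931 CPM. Precursors matched the neurons at 2257 and 2135 CPM, or 0.942 and 1.06 of the neuron level, and oligodendrocytes had 1153 and 927 CPM, or 0.481 and 0.461, both above the neuron markers. In astrocytes (692 and 420 CPM) and microglia (1387 and 694 CPM) Dcc was at 0.289 and 0.578 of the neuron level in WT and 0.209 and 0.345 in CCI, inside the marker range, and is read as background.

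The UNC5 receptors divided by class. Unc5c (ENSMUSG00000059921, chromosome 3, 141465216 to 141834924) was highest in oligodendrocytes, at 2206 CPM in WT (2.82 times the neuron level) and 1711 CPM in CCI (2.21 times), and precursors followed with 1400 and 1462 CPM. Unc5b was at 113 and 101 CPM in oligodendrocytes and at most 40.4 CPM elsewhere. Unc5d instead was a neuron gene, with 887 and 879 CPM in GABAergic neurons and 259 and 332 CPM in dopaminergic neurons. Unc5a was also highest in neurons, between 4.76 and 28.0 CPM across the 5 groups.

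Ephb1, a receptor kinase for ephrin-B ligands (ENSMUSG00000032537, chromosome 9, 101922128 to 102354693, minus strand), was low in dopaminergic neurons. Oligodendrocytes were highest at 534 CPM in WT (508 to 561) and 530 CPM in CCI (514 to 547), 1.93 and 1.79 times the neuron level. GABAergic neurons had 411 and 369 CPM, the Ebf and Lmx1a type 259 and 368 CPM, and the other glutamatergic-highest neurons 265 and 364 CPM; in CCI these 3 groups had overlapping intervals. Dopaminergic neurons had 42.8 CPM (34.1 to 53.2) and 45.1 CPM (38.5 to 52.6), and the Synpo2 and Lef1 type 53.5 and 28.7 CPM. In precursors (160 and 111 CPM), astrocytes (111 and 60.2 CPM) and microglia (260 and 96.0 CPM) the WT level relative to neurons was above the marker range, at 0.580, 0.402 and 0.943, whereas the CCI level was inside it, at 0.373, 0.203 and 0.324. Exons of Ephb1 overlap the gene Gm26846 on the other strand, and no source used here states whether counting used strand.

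**Figure D2:**
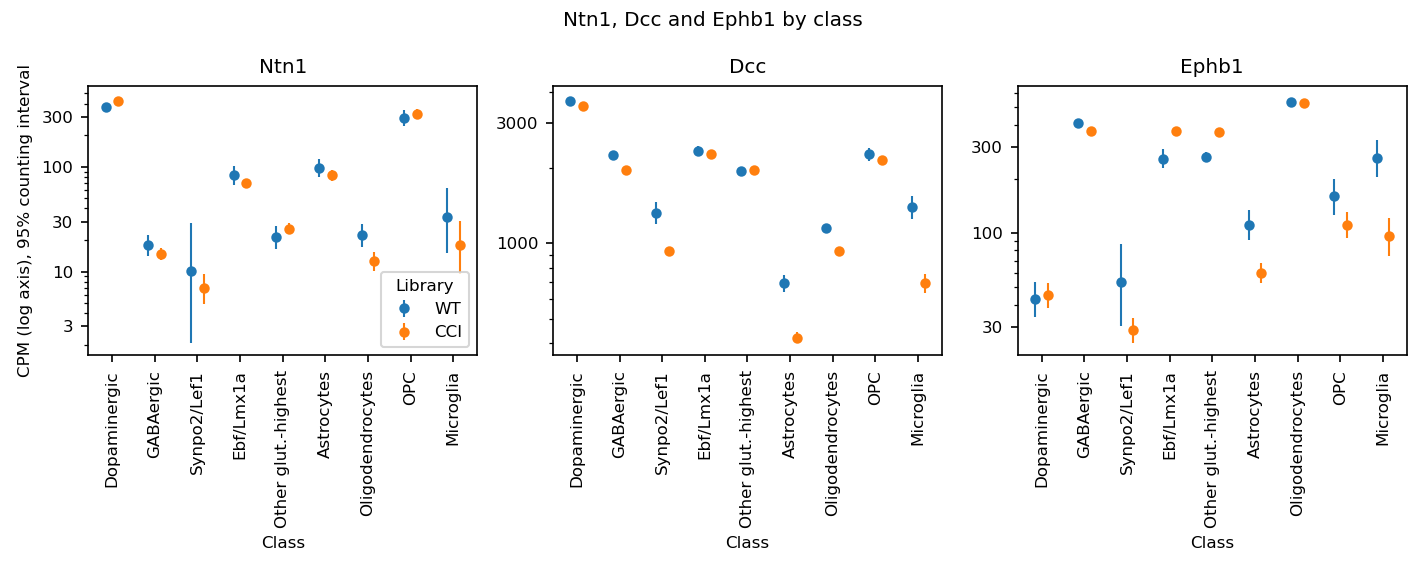
Level of Ntn1, Dcc and Ephb1 in CPM (log axis) in the 9 classes, WT in blue and CCI in orange, with 95% counting intervals. Ntn1 and Dcc are highest in dopaminergic neurons, where Ephb1 is at 42.8 and 45.1 CPM, and the CCI points of Dcc and Ephb1 lie below the WT points in astrocytes and microglia.

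Along the oligodendrocyte lineage the 3 genes had different orders. Between precursors and oligodendrocytes lay a cluster of 206 WT and 23 CCI nuclei in which the markers of committed precursors were highest, although it did not pass the naming rule. In WT, Ntn1 went from 293 CPM in precursors to 32.5 CPM (14.0 to 64.0) in that cluster and 22.2 CPM in oligodendrocytes. Dcc had 2257, 451 and 1153 CPM along the same order, so the intermediate cluster was lowest. Ephb1 had 160, 1032 and 534 CPM, so there it was highest. In the 23 CCI nuclei the values of the intermediate cluster were 9.42 CPM for Ntn1 on 1 UMI, 358 CPM for Dcc and 1602 CPM for Ephb1.

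Semaphorins and ephrins marked the same lineage. Sema3d, a secreted class 3 semaphorin, had 566 CPM in WT precursors and 538 CPM in CCI precursors, 11.9-fold and 10.4-fold above the next class. Sema5b, a transmembrane semaphorin, had 310 and 318 CPM there, 4.86-fold and 5.56-fold above the next. Efnb3, a membrane-bound ephrin-B ligand, had 165 and 141 CPM in oligodendrocytes, 6.43-fold and 7.93-fold above the next class, and Plxnb3, a plexin that binds Sema5a, had 93.3 and 114 CPM. Efna1 was also an oligodendrocyte gene, on 37 and 79 UMIs there (12.4 and 10.2 CPM). Sema6a (287 and 347 CPM) was highest in oligodendrocytes by a smaller margin, and Sema5a (414 and 383 CPM) and Sema3e (97.8 and 143 CPM) in precursors.

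The promoter windows of 4 of these genes are printed because their transcripts separate the stages of this lineage: Sema3d for precursors, Unc5b and Plxnb3 for oligodendrocytes, and Ephb1 for the intermediate cluster and oligodendrocytes. Each run is the 250 bases before the RefSeq start on the gene's own strand (GRCm38.p6): chr5:12382916-12383165 on the plus strand, chr10:60831582-60831831 on the minus strand, chrX:73756853-73757102 on the plus strand and chr9:102354694-102354943 on the minus strand. Capitals mark exact matches, on either strand, of AACAAT or ACAAAG (letters bound by SOX factors), CAGATG or CAGCTG (E-boxes) and AAAGGTCA (an element bound by NR4A factors), and no matches overlapped.
Sema3d: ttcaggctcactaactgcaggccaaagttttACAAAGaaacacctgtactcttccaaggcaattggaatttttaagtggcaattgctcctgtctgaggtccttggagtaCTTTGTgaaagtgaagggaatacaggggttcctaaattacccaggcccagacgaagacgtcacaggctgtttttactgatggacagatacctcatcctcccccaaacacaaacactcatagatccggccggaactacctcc
Unc5b: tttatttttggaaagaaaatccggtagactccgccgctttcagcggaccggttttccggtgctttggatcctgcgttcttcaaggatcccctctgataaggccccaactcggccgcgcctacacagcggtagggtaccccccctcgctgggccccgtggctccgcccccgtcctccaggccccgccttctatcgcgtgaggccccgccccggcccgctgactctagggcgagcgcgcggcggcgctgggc
Plxnb3: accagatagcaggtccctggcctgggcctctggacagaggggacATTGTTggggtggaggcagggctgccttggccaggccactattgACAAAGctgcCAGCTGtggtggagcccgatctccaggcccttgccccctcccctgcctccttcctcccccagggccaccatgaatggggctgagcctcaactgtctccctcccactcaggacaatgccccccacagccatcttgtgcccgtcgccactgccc
Ephb1: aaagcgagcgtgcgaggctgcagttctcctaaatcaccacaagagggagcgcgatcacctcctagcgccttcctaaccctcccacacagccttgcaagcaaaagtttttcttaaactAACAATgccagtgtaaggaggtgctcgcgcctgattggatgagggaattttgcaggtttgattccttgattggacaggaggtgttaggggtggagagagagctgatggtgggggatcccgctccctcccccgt
Sema3d held 2 matches of ACAAAG, Plxnb3 held 1 of AACAAT with 1 of ACAAAG and 1 of CAGCTG, Ephb1 1 of AACAAT and Unc5b none of the 5. Over 32851 RefSeq windows of the same length the shares with a match were 9.42% for AACAAT, 16.5% for ACAAAG, 14.4% for CAGATG, 13.001% for CAGCTG and 1.34% for AAAGGTCA. The windows also differed in CG dinucleotides, with 27 in Unc5b, 10 in Ephb1, 4 in Sema3d and 3 in Plxnb3 against a median of 6. A window was found for 59 of the 69 members.

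Dopaminergic neurons had the highest level of several other members. Sema6d, a transmembrane semaphorin that binds plexin A receptors, had 1852 CPM in WT and 1751 CPM in CCI there, 2.26-fold and 2.07-fold above precursors, the next class. The slit receptor Robo2 had 1735 and 1536 CPM and the ephrin-A receptors Epha5 and Epha6 had 1407 and 1525 CPM in WT and 1100 and 1633 CPM in CCI. Epha10, an Eph receptor without kinase activity, had 208 and 247 CPM. Class 3 semaphorins and neuropilins were near the bottom there: Nrp1, the co-receptor of Sema3a, had 7.84 and 18.1 CPM and Sema3a itself 1.04 and 3.90 CPM.

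Robo1, another slit receptor, was highest in the Synpo2 and Lef1 type of neurons at 3697 and 3961 CPM, 1.86-fold and 2.36-fold above the next neuron group. Epha4 (381 and 413 CPM), a receptor for both ephrin classes, was also highest in that type. Slit3 had 328 and 453 CPM there, but the other glutamatergic-highest neurons matched it in WT at 327 CPM, with 260 CPM in CCI. A subcluster of those neurons held the highest Slit3 level, as given below. Slit2, the slit with the most UMIs, was lowest among neurons in the Synpo2 and Lef1 type (97.0 and 41.5 CPM). It was highest in the Ebf and Lmx1a type (374 and 381 CPM) and the other glutamatergic-highest neurons (402 and 342 CPM). Sema3a was concentrated in 1 neuron group, with 60.9 and 81.6 CPM in the Ebf and Lmx1a type, 4.67-fold and 3.49-fold above the next neuron group. Efna5, the ephrin-A with the most UMIs, lay between 239 and 399 CPM in the 5 neuron groups, and between 80.4 and 648 CPM in the WT subclusters described below.

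In astrocytes the semaphorins Sema4a (109 and 127 CPM) and Sema4b (61.9 and 69.2 CPM), the receptor Ephb4 (15.7 and 15.1 CPM, on 16 and 57 UMIs) and Plxnb1 (57.0 and 94.1 CPM), the receptor of Sema4d, were at least 2-fold above each of the 8 other classes. In the smaller committed precursor cluster, which is not among these classes, Sema4a was higher still, at 183 CPM in WT (45 UMIs) and 330 CPM in CCI (35 UMIs). Among the 9 classes Nrp1 was also highest in astrocytes, at 197 and 219 CPM, but in CCI microglia reached 214 CPM. In microglia Plxnb2 (40.4 and 90.5 CPM), Sema4c (25.7 and 38.4 CPM) and Sema4d (154 and 181 CPM) were highest among the 9 classes. Sema4d was close behind in oligodendrocytes (145 and 152 CPM), and Sema4c had 32.5 and 47.1 CPM in the committed precursor cluster, on 8 and 5 UMIs. Plxna4, a receptor of class 3 and class 6 semaphorins, had 536 and 524 CPM in microglia, 1.09 and 1.15 times the neuron level and above the markers' 0.639 and 0.497. Over the 59 members with at least 50 UMIs in each library, the level relative to neurons exceeded all 5 markers in both libraries for 31 in astrocytes, against 83.9% of all genes, 25 in oligodendrocytes, against 81.3%, 32 in precursors, against 73.2%, and 21 in microglia, against 62.5%.

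Shares of nuclei with a UMI were compared after every nucleus was thinned to 1000 UMIs, which left out shallower nuclei, for example 1064 of the 1266 WT astrocytes. Ntn1 was found in 33.6% of 745 WT dopaminergic neurons (exact 95% interval 30.2 to 37.1). The CCI share was 26.6% of 368 dopaminergic neurons (22.2 to 31.5). Among precursors, 24.2% of the 132 from WT had it (17.2 to 32.5), beside 27.1% of the 387 from CCI (22.8 to 31.9). By share the intervals of dopaminergic neurons and precursors thus overlapped in each library, whereas by CPM they were apart in CCI. GABAergic neurons had 1.36% and 1.30%, oligodendrocytes 1.68% and 1.28%, and the Synpo2 and Lef1 type 0.752% and 0.518%. Dcc was found in 95.7% and 91.6% of dopaminergic neurons and 90.2% and 86.6% of precursors. Its lowest shares were in CCI astrocytes at 34.7% and in CCI microglia at 46.2%. Ephb1 was found in 3.49% and 5.43% of dopaminergic neurons, 30.3% and 26.6% of GABAergic neurons and 38.9% and 36.8% of oligodendrocytes. Without thinning the Ntn1 shares in dopaminergic neurons were 52.3% in WT, at a median of 2122 UMIs, and 86.7% in CCI, at a median of 9148 UMIs.

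Within the neuron groups the members varied between subclusters. In 18 subclusters with at least 50 nuclei in each library, 26 of 59 members with at least 100 UMIs were highest in the same subcluster in WT and in CCI, against 23.8% of all genes. Of these, 8 were highest in subcluster 13, glutamatergic-highest neurons led by Crym and Slc17a7: Slit1, Slit3, Nrp1, Nrp2, Unc5a, Plxna4, Efnb2 and Efnb3. Slit3 reached 1743 CPM in WT and 1812 CPM in CCI there, against medians of 90.7 and 98.5 CPM over the subclusters. Another 5, Ntn1, Dcc, Sema6d, Epha6 and Epha10, were highest in the dopaminergic subcluster 2. Sema3a was concentrated in subcluster 6 of the Ebf and Lmx1a type, with 170 CPM in both libraries, against 50.4 and 40.6 CPM in subcluster 4 and 5.75 and 15.9 CPM in subcluster 7.

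Ntn1, Dcc and Ephb1 each had a wide range among these subclusters. Ntn1 ran from 7.01 to 372 CPM in WT and from 1.82 to 383 CPM in CCI, and the 3 Ebf and Lmx1a subclusters (117, 62.6 and 48.9 CPM in WT) lay above every GABAergic one of the 18 in that library, while in CCI subcluster 6, at 28.8 CPM, lay below the GABAergic subcluster 12, at 37.1 CPM. Ephb1 ran from 42.8 to 754 CPM in WT and from 22.5 to 737 CPM in CCI, with the GABAergic subcluster 19 at the top in both. Dcc ran from 974 to 3686 CPM and from 822 to 3431 CPM. Outside these 18, a GABAergic subcluster of 122 CCI and 2 WT nuclei led by Pax3 had 4604 CPM of Dcc, and one of 133 CCI nuclei led by Six3 had 219 CPM, so the highest and the lowest CCI neuron values both belonged to GABAergic subclusters that WT barely filled.

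**Figure D3:**
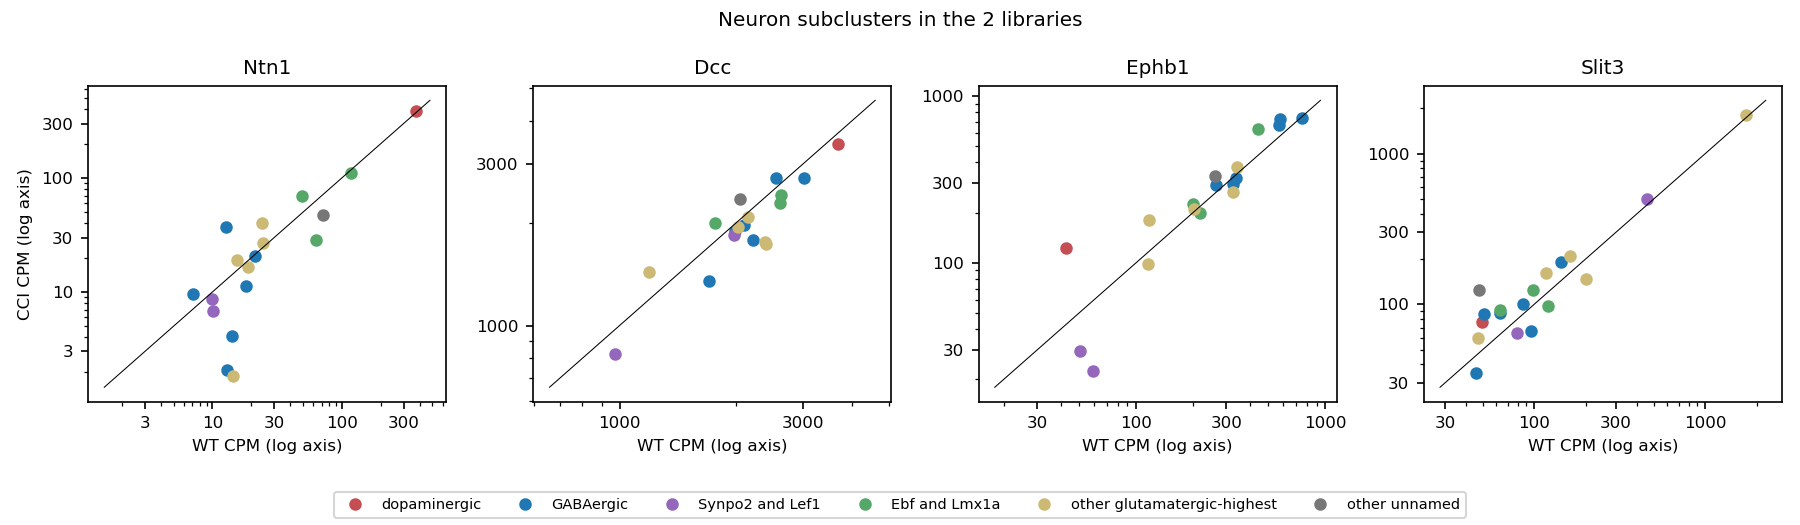
Level of Ntn1, Dcc, Ephb1 and Slit3 in the 18 neuron subclusters with at least 50 nuclei in each library, WT on the x axis and CCI on the y axis, both in CPM on log axes, coloured by group, with the line of equal levels. The dopaminergic subcluster is highest for Ntn1 and Dcc, a glutamatergic-highest subcluster is far to the upper right for Slit3 (1743 and 1812 CPM), and the dopaminergic point for Ephb1 lies above the line.

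The dopaminergic neurons fell into 2 subclusters that the libraries filled unequally. Subcluster 2 held all 822 WT nuclei and 134 CCI nuclei, and subcluster 18 held 234 CCI nuclei and 0 WT nuclei. Within the CCI library the guidance genes separated them: of 38 members with at least 50 UMIs there, 5 were past 1.5-fold higher and 17 past 1.5-fold lower in subcluster 18, against 8.52% and 11.3% of all genes. Ephb1 had 123 CPM in subcluster 2 and 13.3 CPM in subcluster 18 (log2 ratio -3.20, interval -3.79 to -2.65). Sema5b (162 and 14.1 CPM), Nrp1 (50.9 and 4.71 CPM), Unc5d (782 and 148 CPM) and Efna5 (428 and 162 CPM) were likewise lower in subcluster 18. Epha4 (72.05 and 256 CPM), Epha7 (55.7 and 173 CPM) and Plxna1 (26.9 and 74.2 CPM) were higher there. Ntn1 (383 and 447 CPM) and Dcc (3431 and 3552 CPM) were alike, with log2 ratios of 0.22 (0.06 to 0.39) and 0.05 (-0.01 to 0.11). The WT value of the same gene lay between the 2 CCI values for 27 of the 38 members, against 37.1% of all genes.

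**Figure D4:**
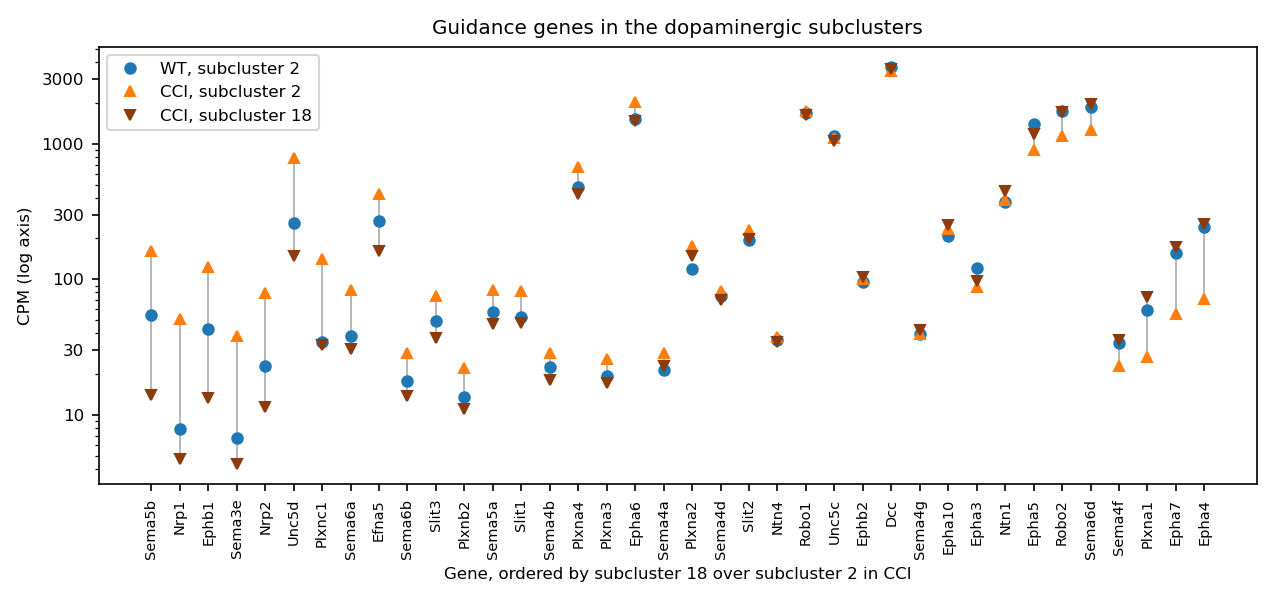
Level in CPM (log axis) of 38 members in the dopaminergic subclusters, ordered by the ratio of subcluster 18 to subcluster 2 in the CCI library, with WT nuclei of subcluster 2 as circles and CCI nuclei of subclusters 2 and 18 as triangles joined by a line. The WT circle lies on the line between the CCI triangles for 27 of the 38 genes (37.1% over all genes), and Ntn1 and Dcc hardly differ between the subclusters.

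Across the libraries, the whole dopaminergic group showed few members past 1.5-fold. Of 42 members with at least 50 UMIs 3 were higher in CCI, against 7.25% of all genes, and 0 were lower, against 4.01%. They were Nrp1 (1.21, 0.38 to 2.13), Sema3e (1.07, 0.17 to 2.07) and Plxnc1 (0.90, 0.50 to 1.32), a plexin that binds Sema7a. Nrp1 and Sema3e rested on 15 and 13 WT UMIs. Unc5d (0.36, 0.21 to 0.52) and Plxna2 (0.38, 0.16 to 0.61) were higher by less, and Epha5 (-0.36, -0.43 to -0.28), Epha3 (-0.37, -0.62 to -0.12) and Robo2 (-0.18, -0.24 to -0.11) lower. Ntn1 was at 0.20 (0.07 to 0.33), Dcc at -0.07 (-0.11 to -0.03) and Ephb1 at 0.08 (-0.32 to 0.48). With nuclei thinned to 1000 UMIs Ntn1 was at -0.35 and Plxna2 at -0.01, so the direction of both turned. In subcluster 2 alone, the one with nuclei of both libraries, 14 of 39 members with at least 50 UMIs were higher, against 12.4% of all genes. Lower were 5, against 8.71%, and Ephb1 was at 1.52, Unc5d at 1.60 and Plxnc1 at 2.04. These ratios set all 822 WT nuclei of the group against 134 CCI nuclei, while 234 CCI nuclei lay in subcluster 18, so unlike parts were compared. The WT levels of Ephb1, Unc5d, Plxnc1, Nrp1 and Sema3e lay between the CCI levels of subclusters 2 and 18. For Sema3e these CCI levels were 38.4 and 4.32 CPM. The median depth of the group was 2122 UMIs in WT and 9148 UMIs in CCI, and its part in the split was not tested.

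In GABAergic neurons 5 of 57 members were higher, against 7.47% of all genes, and 2 were lower, against 5.36%. Nrp2, a co-receptor of class 3 semaphorins, was at 0.83 (0.64 to 1.02) from 61.0 and 108 CPM, and Slit1 at 0.81 (0.62 to 1.00) from 62.7 and 110 CPM. Plxnb1 (1.19), Ephb6 (0.66) and Sema3a (0.59) were the others, each on fewer than 50 WT UMIs, and Plxnc1 was at 0.54 (0.34 to 0.74). Sema3e, a class 3 semaphorin that binds plexin D1 directly, was lower, with 78.8 CPM in WT and 38.1 CPM in CCI (-1.05, -1.24 to -0.85), as was Ephb3 (-0.84). Robo2 (-0.47) and Epha3 (-0.56) were lower by less. Ntn1 was at -0.29 (-0.67 to 0.10), Dcc at -0.20 (-0.23 to -0.17) and Ephb1 at -0.16 (-0.23 to -0.08), which turned to 0.10 with the shared subclusters weighted equally. Without the largest subcluster Dcc was at -0.35, Ephb1 at -0.35, Epha3 at -0.84 and Sema3e at -1.42. At that setting 4 of the single genes followed left their counting intervals and 5 stayed inside. Among the GABAergic subclusters with at least 50 nuclei in each library Sema3e was highest in subcluster 12, at 320 and 166 CPM. Mitochondrially encoded transcripts in these neurons summed to 6194 and 2270 CPM.

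The Synpo2 and Lef1 type, with 136 WT nuclei, had 5 of 41 members higher, against 17.5% of all genes, and 5 lower, against 12.7%. The higher ones were Sema4g (1.17), Nrp1 (1.08), Slit1 (1.04), Sema6a (0.72, 0.33 to 1.14) and Ntn4 (0.59), and of these only the interval of Sema6a excluded 0. Lower were Slit2 (-1.22, -1.79 to -0.61), Ephb1 (-0.90, -1.64 to -0.06), Unc5d (-0.84, -1.10 to -0.57), Plxnb2 (-0.70) and Sema4f (-0.69), and the intervals of Plxnb2 and Sema4f held 0. Epha6 (0.42) and Slit3 (0.47) were higher and Dcc (-0.50, -0.65 to -0.35) lower within 1.5-fold, and Ntn1 had 3 WT UMIs. TMM, a scaling that trims the genes with extreme ratios, moved all ratios of this group by 0.14, the median of all genes to 0.15, and the split to 9 higher and 3 lower. Averaging its 2 subclusters with equal weight left Slit2 at -0.36 and Slit3 at 0.07.

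In the Ebf and Lmx1a type 1 of 51 members was higher, Sema4f (0.63, -0.06 to 1.42), against 12.4% of all genes, and 1 was lower, Sema5b (-0.61, -0.99 to -0.21), against 4.79%. Ephb1 was at 0.51 (0.33 to 0.69), Epha10 at 0.52 (0.25 to 0.80) and Slit1 at 0.43 (0.09 to 0.79). Sema6d (-0.35), Robo2 (-0.18), Ntn1 (-0.27, -0.59 to 0.07) and Dcc (-0.04, -0.10 to 0.02) were at or under 0. Ephb1 was at 0.54 in subcluster 6, at -0.13 in subcluster 4 and at 0.16 in subcluster 7, and at 0.31 with the 3 weighted equally.

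In the other glutamatergic-highest neurons 4 of 56 members were higher, against 9.61% of all genes, and 1 was lower, against 5.60%. The higher ones were Ntn3 (1.00, -0.17 to 2.39), Plxnb2 (0.87, 0.36 to 1.43), Sema3a (0.84, 0.36 to 1.36) and Epha8 (0.76), and Unc5d was at 0.48 (0.41 to 0.54). Sema3e was the lower one (-0.85, -1.17 to -0.53), with Sema5a (-0.58) and Sema5b (-0.57) just within the threshold. TMM scaling gave 4 higher and 2 lower. Ephb1 was at 0.46 (0.35 to 0.57), Ntn1 at 0.27 (-0.12 to 0.68) and Dcc at 0.02 (-0.02 to 0.06). With the 6 subclusters weighted equally Sema3a was at 0.07 and Sema3e at -0.30.

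Astrocytes had 5 of 38 members higher, against 11.0% of all genes, and 5 lower, against 6.17%. Higher were Plxnb2 (0.93), Plxna1 (0.86), Plxnc1 (0.73, 0.14 to 1.37), Plxnb1 (0.72, 0.32 to 1.15) and Slit2 (0.71, 0.40 to 1.03). Plxna1 and Plxnb2 rested on 7 and 12 WT UMIs, and of the other plexins tested Plxna2 was at -0.50 and Plxna4 at -0.08. Lower were Efnb3 (-1.15), Ephb1 (-0.88, -1.22 to -0.55), Unc5c (-0.88, -1.06 to -0.70), Sema5a (-0.86) and Dcc (-0.72, -0.85 to -0.59), and Ntn1 was at -0.23 (-0.57 to 0.11). Efnb3, Ephb1 and Unc5c are the oligodendrocyte genes above, and the 8 oligodendrocyte markers moved the same way in astrocytes, from 2817 to 857 CPM; their part in the result was not tested. Within the 2 astrocyte clusters Dcc was at -0.53 and -0.31, Ephb1 at -0.24 and 0.10 and Unc5c at -0.29 and -0.14. With both clusters weighted equally the values were -0.41, -0.01 and -0.19, whereas Slit2 was again at 0.71, from 0.24 in one cluster and 1.19 in the other. With called doublets kept, a clustering that left 110 WT astrocytes, Slit2 was at 0.03. Dcc lies within the background range of this class, as given above. In 1 library only, Plxna1 (0.191 of the neuron level in WT), Sema5a (0.191 in CCI) and Ephb1 (0.203 in CCI) were also within it.

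In oligodendrocytes 6 of 50 members were higher, against 8.83% of all genes, and 5 were lower, against 4.40%. Nrp2 was at 1.06 (0.65 to 1.49) from 19.5 and 40.5 CPM, Sema3a at 1.34 on 10 WT UMIs, and Slit1 (0.74), Plxnb2 (0.71), Slit3 (0.68, 0.23 to 1.16) and Sema4b (0.62) followed. Robo1, with WT and CCI levels of 907 and 1272 CPM, had a ratio of 0.49 (0.43 to 0.55). Lower were Sema4f (-1.21), Ntn1 (-0.82, -1.29 to -0.35), Sema5a (-0.76, -0.95 to -0.58), Epha4 (-0.64, -0.84 to -0.44) and Sema3d (-0.61), and Robo2 was at -0.50 (-0.63 to -0.37). Ntn1, Slit1, Slit3 and Robo2 lay within the range of the neuron markers in this class in both libraries and are read as background. In WT only, Sema3a (0.238 of the neuron level), Plxnb2 (0.263) and Sema4b (0.177) were also within it, and in CCI only, Sema4f (0.238). Nrp2 was just above it in WT, at 0.323. Dcc was at -0.31 (-0.37 to -0.26) and Ephb1 at -0.01 (-0.09 to 0.07). Within the 4 oligodendrocyte clusters, however, Ephb1 was lower in CCI each time, at -0.07, -0.34, -0.25 and -0.37. The intervals at -0.07 and -0.25 held 0. Equal cluster weights gave -0.29 for Ephb1 and -0.20 for Dcc. The cluster with the highest Ephb1 level, 1079 and 833 CPM, held 145 WT and 769 CCI nuclei. The 4 oligodendrocyte clusters weighted equally gave 19 of 50 members past 1.5-fold, without a share over all genes at that setting, and Robo2 at 0.07.

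Oligodendrocyte precursors had 2 of 31 members higher, against 8.13% of all genes, and 2 lower, against 5.73%; TMM scaling gave 3 and 1. Plxnb1 (1.38, 0.30 to 2.66, on 8 WT UMIs) and Plxnc1 (0.66, -0.06 to 1.44) were higher, and Sema3e was at 0.55 (0.08 to 1.04). Efna5 (-0.67) and Robo2 (-0.59, -0.94 to -0.24) were lower, and Plxna4 (-0.53) and Ephb1 (-0.53, -0.94 to -0.12) lower by less. Efna5, Robo2 and Plxna4 lay within the range of the neuron markers in both libraries and are read as background. Genes that were high in precursors had ratios near 0, with Sema3d at -0.07 (-0.28 to 0.14), Sema5b at 0.04 (-0.24 to 0.32), Ntn1 at 0.13 (-0.15 to 0.42) and Dcc at -0.08 (-0.18 to 0.02). The 8 oligodendrocyte markers went from 2736 CPM in WT precursors to 807 CPM in CCI precursors, and their part was not tested.

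Microglia had 2 of 23 members higher, against 20.9% of all genes, and 7 lower, against 13.8%. Plxnb2 (1.16, 0.23 to 2.24) and Nrp1 (0.91, 0.35 to 1.52) were higher, and the 8 microglia markers were also higher in CCI (4090 and 7588 CPM). Lower were Ephb1 (-1.44, -1.94 to -0.94), Slit2 (-1.33), Unc5c (-1.11, -1.35 to -0.86), Robo2 (-1.01), Dcc (interval -1.19 to -0.80, from 1387 and 694 CPM), Sema6d (-0.73) and Epha5 (-0.63), and Ntn1 had 9 WT and 13 CCI UMIs. Of these, Dcc, Epha5, Robo2, Sema6d and Slit2 lay within the range of the neuron markers in both libraries and are read as background. Ephb1 and Unc5c were higher in oligodendrocytes than in microglia in both. Neuron markers (7898 and 5731 CPM) and oligodendrocyte markers (5140 and 1269 CPM) were lower in CCI microglia too, and their part in the result was not tested.

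**Figure D5:**
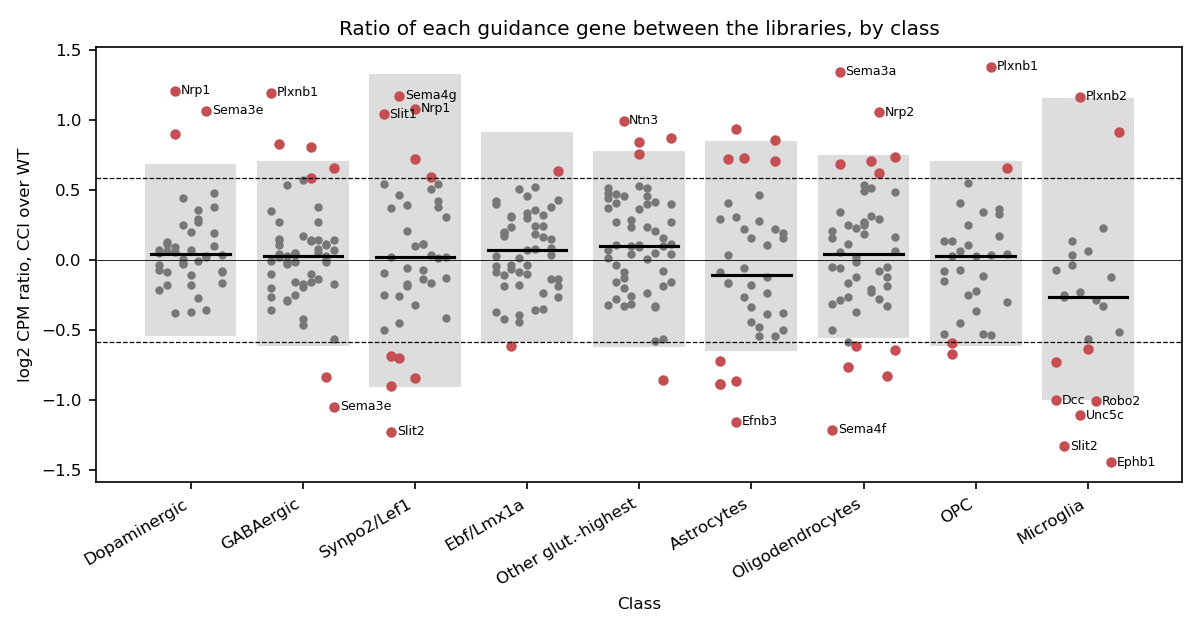
Log2 CPM ratio, CCI over WT, of each member with at least 50 UMIs in a class; red points lie past 1.5-fold (dashed lines), black bars are the members' medians and grey boxes span the 5th to the 95th percentile of all genes at that count. The members' median lies near 0 except in microglia, at -0.27, where 7 of 23 members are lower.

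The members' median ratio was 0.04 in dopaminergic and 0.03 in GABAergic neurons, 0.02 in the Synpo2 and Lef1 type, 0.07 in the Ebf and Lmx1a type and 0.10 in the other glutamatergic-highest neurons. All genes had medians of 0.03, 0.03, 0.00, 0.06 and 0.06 in these groups. In glia the members' medians were -0.10 in astrocytes, 0.04 in oligodendrocytes, 0.03 in precursors and -0.27 in microglia, beside 0.03, 0.06, 0.01 and 0.11 for all genes. Within neurons, 34 of 61 members were highest in the same neuron group in both libraries, against 40.5% of all genes.

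The other genes of these pathways, a list of 56 netrin G proteins, co-receptors, adaptors and cytoskeletal effectors, were measured the same way. In dopaminergic neurons 0 of 50 passed 1.5-fold either way, and in GABAergic neurons 1 of 54 was higher (Rnd1, 0.64) and 1 lower (Dock1, -0.70). The Synpo2 and Lef1 type had 6 higher and 5 lower of 48, the Ebf and Lmx1a type 3 higher of 53 (Rnd1, Ngef and Ablim3), and the other glutamatergic-highest neurons 1 higher (Ablim3, 0.70) and 2 lower (Vav3, -0.63, and Rgmb, -0.65) of 53. In glia, 5 of 49 were higher and 2 lower in astrocytes, 5 of 51 and 1 in oligodendrocytes, 5 of 42 and 2 in precursors, and 5 of 33 and 8 in microglia. Ntng1, a membrane-anchored netrin relative that binds the synaptic adhesion protein Lrrc4c, was higher in all 4 glial classes, at 0.69, 0.75, 0.91 and 1.09, and was picked out after its values were seen. Lrrc4c was lower in microglia (-0.88). The medians of the list lay between -0.08 and 0.11 in the classes other than microglia, where it was -0.25.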

How the data were processed

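The deposited files are filtered 10x gene by barcode matrices of UMI counts, 1 per library, from Cell Ranger 7.1.0 per the file headers, with mm10 as genome build and Seurat named in the submitters' processing notes. Whether introns or strand were used in counting is not given in the sources used here. The labels' protocols describe a 3' kit and a tissue digestion, while the series text says nuclei. Nuclei with at least 500 UMIs, 200 genes and at most 20% mitochondrially encoded UMIs were kept, and doublets were called per library with Scrublet (9.65% of WT and 6.80% of CCI nuclei). Counts were log-scaled, 2000 variable genes without the members gave 30 components scaled within each library, and Leiden clusters at resolution 1.0 (scanpy 1.11.5, leidenalg 0.10.2, scikit-learn 1.9.0, numpy 2.4.6, scipy 1.17.1) were named where fixed markers passed a level. Neurons were clustered again.

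UMIs were summed per class and library. Ratios carry exact conditional 95% intervals, levels Poisson intervals and shares Clopper-Pearson intervals. A member was counted past 1.5-fold with at least 50 UMIs over both libraries. Of these steps, the ratio intervals were tried on simulated counts that held only the counting noise they assume. That simulation cannot bear on other sources of difference between the libraries. Of the identifiers, 32235 of 32285 were in GENCODE vM21. 

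Named genes were Ntn1, Dcc and Ephb1 in every class, the 3 highest and 3 lowest ratios per class by the interval bound nearest 0 among members with at least 100 UMIs, up to 3 members at least 2-fold above every other class, and the ligand and receptor of each family with most UMIs. Counts of 5 or fewer are also named, chosen after their values were seen. The members, lists and rules were chosen with earlier results of these data known. Alternatives were other clusterings, filters, thinning to 1000 UMIs, count minimums of 20 and 100, TMM scaling, equal cluster weights and, added after seeing the data, GABAergic neurons without their largest subcluster.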

Additional observations from a re-analysis of the deposited data

Results flagged for a closer look

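Slit2 was past 1.5-fold in opposite directions in classes of the same comparison, with intervals that excluded 0 and at least 100 UMIs in each. Its log2 ratio was -1.22 (-1.79 to -0.61) in the Synpo2 and Lef1 type neurons, from 29 WT and 227 CCI UMIs, and 0.71 (0.40 to 1.03) in astrocytes, from 99 and 600 UMIs. The difference between the classes was not tested, since each library is 1 sample. In the Synpo2 and Lef1 type the value was -0.36 with the 2 subclusters weighted equally, and in astrocytes it was 0.03 when called doublets were kept.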

How the results depend on the processing

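Counts of members past 1.5-fold moved with several settings. They are given with the number of members tested, which changed with some settings. Shares over all genes under these settings are not given here, so the counts are not read as a result about the members. With at least 20 UMIs per gene the counts were 5 of 47 in dopaminergic neurons, 20 of 55 in the Synpo2 and Lef1 type and 4 of 58 in the Ebf and Lmx1a type. The other glutamatergic-highest neurons had 10 of 61, precursors 11 of 43 and microglia 19 of 36. With at least 100 UMIs they were 1 of 34 in dopaminergic neurons, 3 of 49 in the other glutamatergic-highest neurons and 7 of 41 in oligodendrocytes. Equal weight for each shared cluster gave 19 of 39 in dopaminergic neurons, where only subcluster 2 was shared, and 1 of 51 in the Ebf and Lmx1a type. It gave 12 of 56 in the other glutamatergic-highest neurons and 19 of 50 in oligodendrocytes. Thinning to 1000 UMIs gave 6 of 20 in the Synpo2 and Lef1 type, 5 of 34 in the Ebf and Lmx1a type and 3 of 37 in the other glutamatergic-highest neurons. In microglia it gave a members' median of -0.93. Leiden resolution 0.5 gave 13 of 51 in GABAergic neurons and 18 of 50 in the other glutamatergic-highest neurons. Resolution 2.0 gave 8 of 51 in the Ebf and Lmx1a type and 8 of 58 in the other glutamatergic-highest neurons. With members kept among the variable genes the latter 2 groups had 1 of 51 and 8 of 55. With doublets kept the Ebf and Lmx1a type had 4 of 51, and with stricter filters 5 of 51. The cause was not tested. Of 264 such counts and medians 239 stayed near their reported value. Of 629 alternative values of single genes 532 lay inside the counting interval, and no called gene among those followed changed sign. Many called genes were not followed, such as Sema3a and Sema4f in oligodendrocytes and Slit2 in microglia. Resolution 2.0 gave no value for microglia, with 31 WT nuclei. No paired analysis was possible because there is 1 library per group. The WT depth limits genes under about 50 UMIs in a class.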
